A study of Homo sapiens with 13 samples.

Results

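The genes described here are 37 lysosomal genes chosen by symbol: the cathepsins and other proteases of the lysosome, its glycan and lipid hydrolases, its main membrane proteins, 3 proton pump genes, the channel MCOLN1 and the transcription factor TFEB. Of the 37, 36 had a row among the 38369 gene rows of each deposited table; no row carried the symbol CTSS. They were read by RNA-seq of polyA-selected RNA in MCF10A, a human breast epithelial line that is immortal but does not form tumours, although the labels give its cell type as breast cancer. The study followed transformation by Src and tested over-expression of the long intergenic RNA LINC00520. MCF10A-Src cells carry an added Src kinase that becomes active when tamoxifen is given. They gave 1 library before tamoxifen (0 h), 2 after 4 h, 1 after 12 h and 2 after 36 h. Parental MCF10A cells gave 3 untransduced libraries, which the labels also call mock transduced, and 2 libraries transduced with LINC00520, all harvested at 72 h. Every group grew in Ham's F12/DMEM with equine serum, hydrocortisone, cholera toxin, EGF and insulin. No Src library without tamoxifen was made at the later times, so Src activity and time in culture cannot be told apart, and LINC00520 was compared with untransduced cells only, so the RNA and the act of transduction cannot be told apart.

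The lysosome is the acidic compartment in which cells break down protein, glycan and lipid, and its enzymes arrive as inactive precursors. Cysteine cathepsins such as B and L act inside it and, when secreted by tumour cells, also on proteins of the matrix, whereas cathepsin D is an aspartic protease. TFEB and its relatives switch on many of these genes together by binding a short palindromic sequence, the CLEAR element, near their start sites.

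Promoter sequences (RefSeq, GRCh38.p14, 250 bases before to 50 after the gene start) were found for 25 of the 37 genes, and 11 of the 36 measured genes, CTSB among them, had none. The core of the CLEAR element, TCACGTG read on both strands, was present in 6 of the 25 (24%), against 3.82% of 27305 promoters of the same length. The 6 genes were CTSA, CTSD, LAMP1, GAA, MCOLN1 and ATP6V0D1. Stretches of their promoters are shown because CTSD, LAMP1 and ATP6V0D1 fell at 36 h against 4 h while CTSL1, which had no core, rose. CTSZ and GLB1 also fell and had no core, and CTSA, GAA and MCOLN1 did not pass the test. Capitals mark the core, also where it is read on the other strand or where overlapping copies on both strands run together.
CTSA (chr20:45891252-45891334, plus strand): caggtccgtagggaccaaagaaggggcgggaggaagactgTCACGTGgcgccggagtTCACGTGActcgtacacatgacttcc
CTSD (chr11:1763928-1764014, minus strand): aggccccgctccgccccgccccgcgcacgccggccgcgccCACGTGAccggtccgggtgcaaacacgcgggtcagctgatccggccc
LAMP1 (chr13:113297006-113297092, plus strand): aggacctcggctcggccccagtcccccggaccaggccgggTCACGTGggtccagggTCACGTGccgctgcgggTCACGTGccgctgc
GAA (chr17:80101464-80101556, plus strand): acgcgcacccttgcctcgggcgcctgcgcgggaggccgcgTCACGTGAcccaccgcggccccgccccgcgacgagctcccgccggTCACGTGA
MCOLN1 (chr19:7522542-7522623, plus strand): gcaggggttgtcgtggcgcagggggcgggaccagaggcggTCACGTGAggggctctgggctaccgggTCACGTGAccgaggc
ATP6V0D1 (chr16:67481171-67481257, minus strand): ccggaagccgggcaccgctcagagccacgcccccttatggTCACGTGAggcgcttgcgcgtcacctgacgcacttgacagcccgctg
CTSL1, no core (chr9:87726029-87726118, plus strand): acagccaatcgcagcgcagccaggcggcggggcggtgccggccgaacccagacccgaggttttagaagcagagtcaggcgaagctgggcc

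The same 25 promoters were searched on both strands for sites of factors tied to Src signalling. The AP-1 site TGANTCA was found in CD63, CD68 and PPT1, that is in 12% of the 25 against 7.76% of all promoters. A STAT site, TTCNNNGAA, was in none of the 25 and in 7.88% of all promoters. A match describes these letters in this window and is no evidence of binding. The sites of CD63 and CD68, chosen because these genes rose at 36 h against 4 h, are shown with the AP-1 letters in capitals; PPT1, the third gene with the site, did not pass the test (log2 -0.20, SE 0.18; edgeR adjusted p = 0.425).
CD63 (chr12:55729092-55729178, minus strand): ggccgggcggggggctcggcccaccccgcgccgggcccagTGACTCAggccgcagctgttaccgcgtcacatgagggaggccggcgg
CD68 (chr17:7579498-7579584, plus strand): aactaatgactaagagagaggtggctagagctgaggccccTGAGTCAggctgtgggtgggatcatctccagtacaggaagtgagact

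Library depth ran from 12.6 to 52.3 M fragments. The row of LINC00520 held 0.142 ± 0.0558 CPM (fragments relative to library size after TMM scaling; SD, n = 3) in untransduced and 46.1 ± 0.166 CPM (SD, n = 2) in transduced cells. All 9 breast epithelial markers measured (KRT5, KRT14, KRT17, KRT18, TP63, CDH1, EPCAM, EGFR and LAMB3) stood at 1 FPKM (a level per transcript length, which allows genes to be compared) or more in every library. Of 10 macrophage and blood cell markers, TYROBP and MS4A1 had no fragment in any library and CD14 was the most abundant. The labels do not tell whether replicate libraries stem from different cultures; the p-values then cover only how libraries vary, which may be technical. In bulk RNA, fewer cells that hold a transcript and less of it per cell cannot be told apart.

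In parental cells and at 0 h, the lysosomal RNA pool was led by CD63, a tetraspanin of late endosomes, PSAP, the precursor of the saposin cofactors, and NPC2, a carrier of cholesterol. The FPKM of these 3 genes at 0 h was 151, 129 and 96.8. CTSB and CTSL1 together made up 6.01% to 6.67% of the summed FPKM of the 36 genes in the 5 parental libraries and 9.19% at 0 h. With tamoxifen this share stood at 22.7% and 21% in the 4 h libraries, 43% at 12 h, and 70.7% and 67.3% in the 36 h libraries. CTSB ranked first among the 36 genes in each library from 4 h on, and CTSL1 ranked second at 12 h and in both 36 h libraries.

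**Figure D1:**
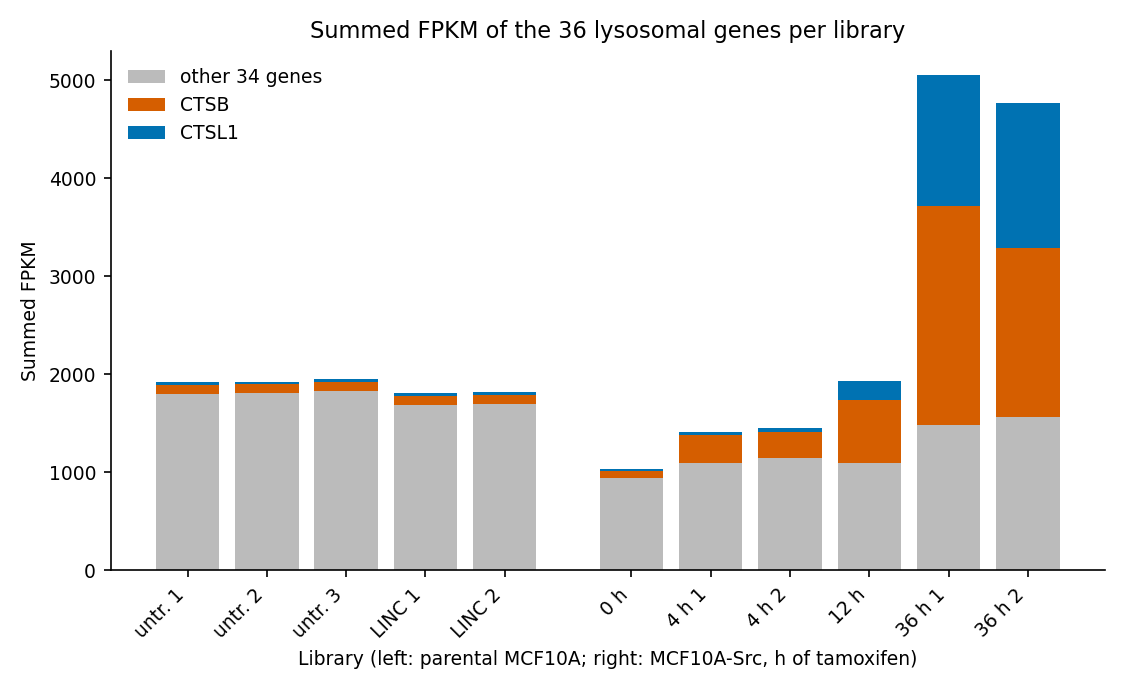
Summed FPKM of the 36 measured genes in each library, stacked into CTSB, CTSL1 and the other 34 genes; untr. is untransduced and LINC is transduced with LINC00520. The pool reached 5049 and 4769 FPKM in the 36 h libraries against 1032 at 0 h, and the 34 other genes together went from 937 FPKM to 1482 and 1561; the FPKM of all genes together also went up, from 495928 at 0 h to 717172 and 1005260 at 36 h, and the parental and Src tables were scaled separately.

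CTSB and CTSL1 rose from the first time point on. CTSB, a papain-like protease with both endo- and exopeptidase activity (hg19, chromosome 8, 11700035 to 11725646), held 173 CPM at 0 h, 509 and 471 CPM at 4 h, 1201 CPM at 12 h, and 4225 and 3432 CPM at 36 h. Each time point lay above the one before it, and no libraries of different times overlapped. The log2 fold change was 1.51 (SE 0.23) at 4 h, 2.80 (SE 0.27) at 12 h and 4.47 (SE 0.28) at 36 h, each against 0 h, with adjusted p of 0.0127, 0.00132 and 5.53e-05 by edgeR's quasi-likelihood test with Benjamini-Hochberg adjustment over all genes. Against 4 h, CTSB was 7.82-fold higher at 36 h (log2 2.97, SE 0.19; edgeR adjusted p = 4.17e-05).

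CTSL1, the endopeptidase cathepsin L (hg19, chromosome 9, 90340973 to 90346571; now named CTSL), started lower and rose further. Its level was 25.9 CPM at 0 h, 49.1 and 54.9 CPM at 4 h, 285 CPM at 12 h, and 1889 and 2018 CPM at 36 h. As for CTSB, the times did not overlap. The log2 fold change against 0 h was 1.01 (SE 0.20) at 4 h, 3.46 (SE 0.24) at 12 h and 6.24 (SE 0.27) at 36 h, with edgeR adjusted p of 0.0304, 0.000399 and 1.83e-05. From 4 h to 36 h it was 37.6-fold higher (log2 5.23, SE 0.19; edgeR adjusted p = 4.63e-06). The close paralogue CTSL2, cathepsin V, stood at 8.13 CPM at 0 h, 6.85 and 9.76 CPM at 4 h, 5.20 CPM at 12 h, and 13.6 and 16.1 CPM at 36 h. It was higher at 36 h than at 4 h, by 0.83 on the log2 scale (SE 0.24; edgeR adjusted p = 0.0279), and reads shared by these paralogues could be placed in either.

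**Figure D2:**
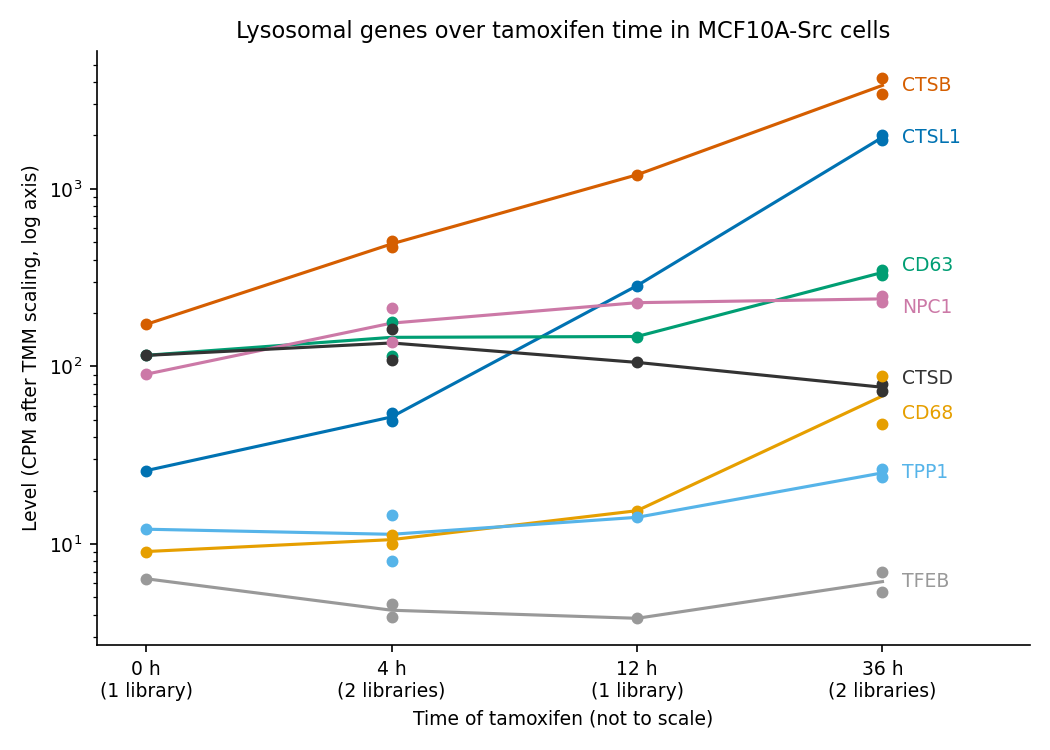
Level in CPM (log axis) of 8 lysosomal genes by hours of tamoxifen; points are libraries and lines join the mean of each time. CTSB and CTSL1 climbed at every time, NPC1 stood at 229 CPM at 12 h and 249 and 231 CPM at 36 h, CD63 and CD68 were highest at 36 h, and CTSD was lowest there, at 72.6 and 80.2 CPM.

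At 4 h, CTSB and CTSL1 were the 2 of 36 genes that rose; 3.15% of 15572 genes did so. At 12 h the same 2 rose, against 3.04% of all genes. None of the 36 fell in edgeR at either time, where 3.09% and 1.2% of all genes did; at an unadjusted p under 0.05 none was lower either, and DESeq2 called none lower. The lone libraries of 0 h and 12 h were assumed to vary like the pairs at 4 h and 36 h. Without replicate 1 of 4 h, which leaves 1 library a side, calls moved in both directions. The median log2 fold change of the 36 at 4 h was then 0.14, beside -0.01 over all genes. Limma on log2 FPKM called none of the 36 at 4 h, where it called 86 of 15572 genes higher and 78 lower (pseudocount 1). NPC1, the membrane transporter that passes cholesterol out of the lysosome, held 90.4 CPM at 0 h, 213 and 138 CPM at 4 h, 229 CPM at 12 h, and 249 and 231 CPM at 36 h. All later libraries stood above the 0 h library, and the 4 h pair differed most. The authors' deposited calls named NPC1 as higher than at 0 h already at 4 h (authors' deposited q = 0.00281) and at 12 h (authors' deposited q = 0.000829). Its log2 fold change against 0 h was 0.96 (SE 0.27; edgeR adjusted p = 0.0802) at 4 h, 1.34 (SE 0.31; edgeR adjusted p = 0.0532) at 12 h and 1.41 (SE 0.28; edgeR adjusted p = 0.0111) at 36 h.

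By 36 h, 7 of the 36 genes were higher than at 0 h (CTSB, CTSC, CTSL1, LAMP3, CD63, CD68 and NPC1), where 9.99% of all genes were. Of these, CTSC lost its call in 5 of 9 alternative fits and LAMP3 in 5 of 8, with either 36 h library left out and without scaling among them. None was lower in edgeR, against 9.36% of all genes; CTSD was lower at an unadjusted p under 0.05 and DESeq2 called none. The median log2 fold change over the 36 was 0.34, beside -0.08 over all genes tested. All 3 comparisons with 0 h share the single 0 h library, so they are not independent of each other, and the comparisons of 4 h with 0 h and of 36 h with 4 h share the 4 h libraries.

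In the comparison of 36 h with 4 h, which has 2 libraries on each side, 4 of 10 measured cathepsins rose and 2 fell, and 4 of 5 membrane proteins rose and 1 fell. In all, 11 of 36 genes rose and 5 fell, where 18.8% and 20.5% of all genes rose and fell. At 2-fold or more, 6 of the 36 rose, against 10.1% of all genes, and none fell by that much, against 9.89%; CTSD fell most. The median log2 fold change of the 36 was 0.22, beside -0.04 over all genes. With no scaling beyond the library total both medians moved down together, to -0.04 and -0.29. Then 6 genes rose and 8 fell, where 1861 and 4823 of 15572 genes did. Leaving out either 36 h library lowered the counts in both directions, among the 36 and over all genes. The medians of the 36 and of all genes were then 0.21 and -0.06 without replicate 1, and 0.26 and -0.045 without replicate 2.

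Among the 8 measured papain-like cathepsins, CTSB, CTSL1, CTSL2 and CTSK rose and CTSZ fell. CTSK, the collagen-cleaving cathepsin best known from osteoclasts, was scarce: it stood at 2.28 and 1.57 CPM at 4 h and 3.62 and 3.99 CPM at 36 h (log2 0.98, SE 0.31; edgeR adjusted p = 0.0377), on 37 to 75 fragments a library. CTSZ, a carboxypeptidase, fell by 0.51 on the log2 scale (SE 0.16; edgeR adjusted p = 0.0405). CTSK and CTSZ each lost their call in 5 of 13 alternative fits, leaving out either 36 h library included, and CTSL2 in 4. CTSC, which activates serine proteases of granules, did not pass the test between 4 h and 36 h (log2 0.18, SE 0.15; edgeR adjusted p = 0.361), nor did CTSH and CTSO.

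The aspartic protease CTSD went the other way from CTSB and CTSL1. Its level was 116 CPM at 0 h, 163 and 108 CPM at 4 h, 105 CPM at 12 h, and 72.6 and 80.2 CPM at 36 h. The deposited row of CTSD spans chromosome 11, 1488704 to 1785501 (hg19), and can be wider than the gene. Both 36 h libraries lay below all others, while the 4 h pair was spread on either side of the 0 h value. CTSD fell by 0.83 on the log2 scale from 4 h to 36 h (SE 0.21; edgeR adjusted p = 0.0172); without replicate 1 of 36 h and in both limma fits the call was lost. TPP1, a tripeptidyl peptidase, stood at 14.6 and 8.06 CPM at 4 h and 23.9 and 26.5 CPM at 36 h, and rose by 1.15 (SE 0.28; edgeR adjusted p = 0.0146), a call lost in both limma fits. LGMN, the asparaginyl endopeptidase legumain that processes other cathepsins, rose by 0.58 (SE 0.17; edgeR adjusted p = 0.0275), though the call was lost in 4 of 13 alternative fits. CTSA, the carboxypeptidase that protects GLB1, did not pass the test.

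**Figure D3:**
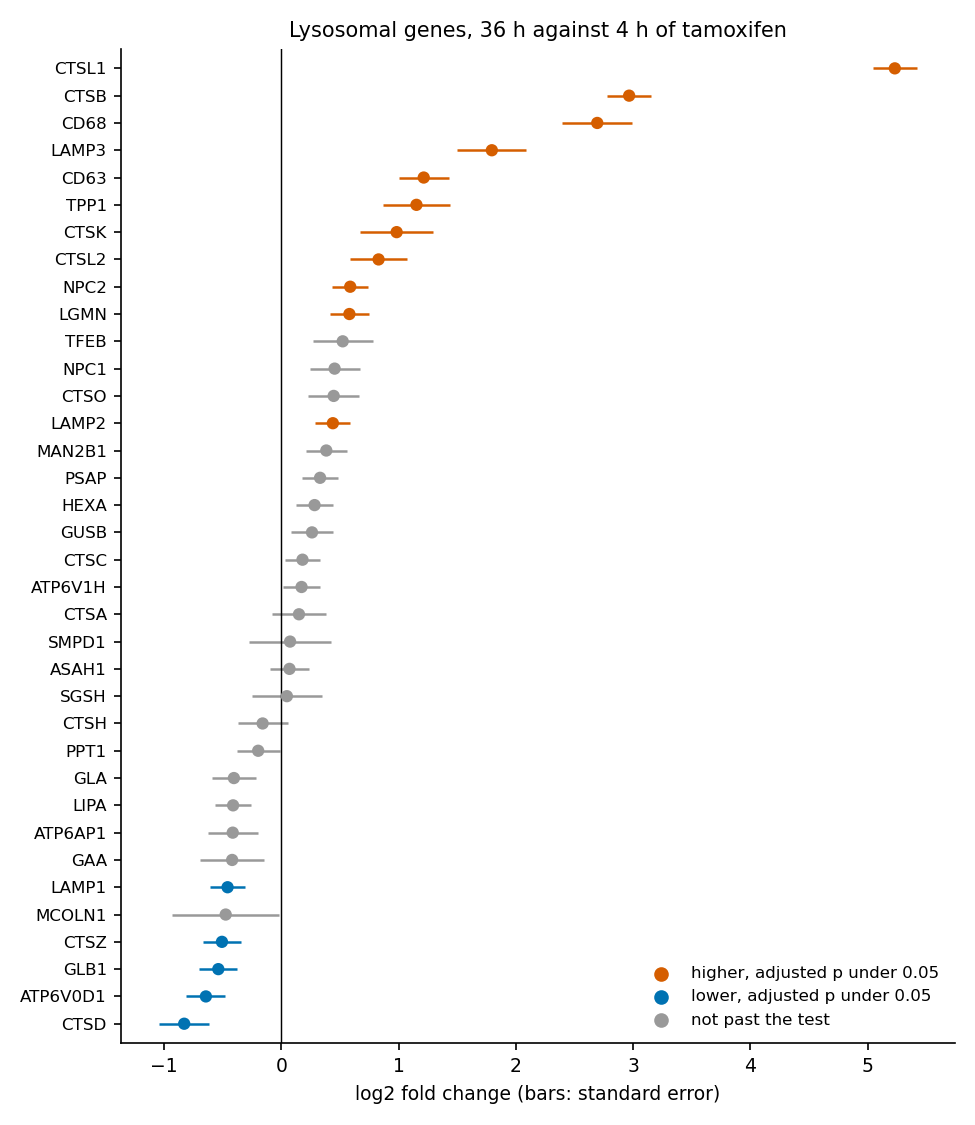
Log2 fold change between 36 h and 4 h of tamoxifen for the 36 genes in order of size, with standard errors and coloured by edgeR call. CTSL1 (5.23), CTSB (2.97) and CD68 (2.69) stand apart at the top, and the 5 genes that fell lie between -0.46 and -0.83.

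Of the 5 membrane proteins, 4 rose and LAMP1 fell. CD68, a heavily glycosylated lysosomal protein widely used as a macrophage marker, held 9.07 CPM at 0 h, 11.2 and 9.97 CPM at 4 h, 15.4 CPM at 12 h, and 88.8 and 47.6 CPM at 36 h. The 36 h libraries differed from each other, yet both lay above all earlier ones (log2 2.69 against 4 h, SE 0.30; edgeR adjusted p = 0.000477). The authors' deposited calls did not name CD68 at 36 h (authors' deposited q = 0.373 against 4 h and 0.429 against 0 h). The deposited row of CD68 spans chromosome 17, 7465312 to 7536700 (hg19), and can be wider than the gene. Among macrophage and blood cell markers, CD14 also rose from 4 h to 36 h, by 0.82 on the log2 scale (SE 0.20; edgeR adjusted p = 0.0145); the summed FPKM of the 10 markers was 5.66 at 0 h, 8.95 and 7.82 at 4 h, 9.57 at 12 h, and 13.7 and 16.8 at 36 h. In the Src libraries CD14 was the one of these 10 at 1 FPKM or more. CSF1R, whose row also holds PDGFRB, stood at 0.481 to 0.727 FPKM, and CD163 had 0 fragments at 0 h and in both 4 h libraries, 3 at 12 h and 14 in each 36 h library. Of 7 fibroblast markers DCN alone reached 1 FPKM in these libraries, and it rose by 1.75 (SE 0.19; edgeR adjusted p = 0.000386), while COL1A2 had no fragment. Their part in the result was not tested.

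CD63 stood at 116 CPM at 0 h, 115 and 177 CPM at 4 h, 147 CPM at 12 h, and 328 and 349 CPM at 36 h. Its 36 h libraries were close together and above the rest (log2 1.21 against 4 h, SE 0.21; edgeR adjusted p = 0.00377). LAMP3, a relative of LAMP1 first described in dendritic cells, held 2.99 CPM at 0 h, 2.44 and 1.53 CPM at 4 h, 6.75 CPM at 12 h, and 6.91 and 6.74 CPM at 36 h, with the 36 h pair above the 4 h pair (log2 1.80, SE 0.29; edgeR adjusted p = 0.00269). At 12 h against 0 h LAMP3 did not pass the test (log2 1.17, SE 0.37, edgeR adjusted p = 0.139). The authors' deposited calls did name LAMP3 there (authors' deposited q = 0.021).

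LAMP1 and LAMP2, heavily glycosylated proteins that line the lysosomal membrane, moved in opposite directions. LAMP1 held 102 CPM at 0 h, 118 and 123 CPM at 4 h, 120 CPM at 12 h, and 90.1 and 85.0 CPM at 36 h (log2 -0.46, 36 h against 4 h, SE 0.15; edgeR adjusted p = 0.0395). LAMP2, also the receptor of chaperone-mediated autophagy, rose by 0.44 (SE 0.15; edgeR adjusted p = 0.0486). Both calls were near the threshold: LAMP1 lost its call in 9 of 13 alternative fits and LAMP2 in 7 of 13.

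Of the 12 hydrolases and cofactors of glycan and lipid breakdown, 1 passed the test. Of the 7 glycan hydrolases, GLB1, the beta-galactosidase, fell by 0.54 (SE 0.16; edgeR adjusted p = 0.0308; lost in 5 of 13 alternative fits) and 6 did not pass the test; the GLB1 row also holds TMPPE, and the HEXA row also holds BRUNOL6 and PARP6, so their reads cannot be separated. None of the 5 lipid enzymes and cofactors (ASAH1, PSAP, PPT1, LIPA and SMPD1) was called in edgeR or in DESeq2, and LIPA, the acid lipase, alone had an unadjusted p under 0.05, with a log2 fold change of -0.41. The cholesterol carrier NPC2 rose by 0.59 (SE 0.15; edgeR adjusted p = 0.0182), a call lost in 4 of 13 alternative fits. Of the proton pump genes, ATP6V0D1, a subunit of its membrane sector, fell by 0.64 (SE 0.17; edgeR adjusted p = 0.0175), a call lost without either 36 h library. TFEB held 6.38 CPM at 0 h, 4.62 and 3.86 CPM at 4 h, 3.82 CPM at 12 h, and 5.36 and 6.93 CPM at 36 h. The 36 h libraries lay above the 4 h pair and on either side of the 0 h value, and the test was not passed (log2 0.52, SE 0.26; edgeR adjusted p = 0.140).

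Ordered by the promoter letters shown above, the 6 genes with a CLEAR core had a median log2 fold change of -0.47 at 36 h against 4 h. In edgeR 3 of them were lower (CTSD, LAMP1 and ATP6V0D1). Of 13 alternative fits, LAMP1 lost its call in 9, DESeq2 among them, CTSD in 3 and ATP6V0D1 in 2. None of the 6 was higher in edgeR, at an adjusted or an unadjusted p under 0.05, or in DESeq2. The 19 genes whose promoter window lacks the core had a median of 0.26, with 6 higher and 2 lower, and the 11 without a sequence a median of 0.44, with 5 higher. Over all genes tested the median was -0.04, with 18.8% higher and 20.5% lower. The genes with the core had the lower median at 36 h against 0 h too (-0.27 and 0.53 with and without it). In the other 3 comparisons they had the higher one: 0.23 and 0.16 at 4 h and 0.31 and 0.23 at 12 h, each against 0 h, and 0.00 and -0.08 with LINC00520. The grouping is a description of few genes and was not tested.

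**Figure D4:**
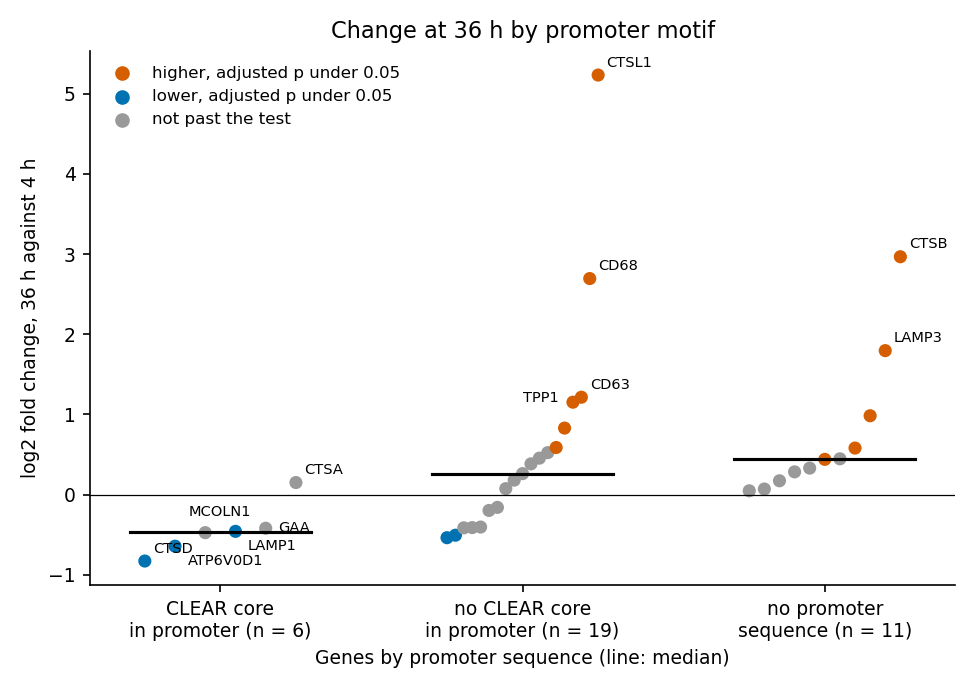
Log2 fold change between 36 h and 4 h for the 36 genes, grouped by whether the RefSeq promoter window holds the CLEAR core; lines are medians. Of the 6 genes with the core 5 lie below 0, with CTSA at 0.15 the exception, while CTSL1, CD68, CD63 and TPP1 are among the 19 without it.

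Other lysosomal genes at 36 h against 4 h are given by list, to be read against the 18.8% of all genes that rose and the 20.5% that fell. Of 20 other genes of the lysosomal membrane and of enzyme delivery, 8 fell and none rose in edgeR (2 were higher at an unadjusted p under 0.05), with a median log2 fold change of -0.43; the 2 largest falls were those of TPCN1, an endolysosomal cation channel (log2 -1.37, SE 0.29), and LAPTM5 (log2 -1.22, SE 0.32). Of 19 other proton pump subunits, 3 rose and 7 fell, with ATP6V0E2 at 9.92 CPM at 4 h and 1.60 CPM at 36 h. ATP6V0D2, the alternative form of the D1 subunit, had 1 and 0 fragments at 4 h and 66 and 32 fragments at 36 h. Of 23 other hydrolases and activators, 3 rose and 6 fell, and HYAL1, which cuts hyaluronan, rose by 2.24 (SE 0.32) while ARSA, the sulfatide sulfatase, fell by 1.34 (SE 0.43).

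Some inhibitors of cathepsins rose as well. The counts in this paragraph are for 36 h against 4 h, where 18.8% of all genes rose and 20.5% fell. Of 6 inhibitor rows tested, 2 rose from 4 h to 36 h and none fell. SERPINB3 and SERPINB4, serpins that block cathepsin L-like and serine proteases, share 1 row, which held 6.57 CPM at 0 h, 159 ± 5.32 CPM (SD, n = 2) at 4 h, 1167 CPM at 12 h and 4381 ± 10.5 CPM (SD, n = 2) at 36 h (log2 4.78, 36 h against 4 h, SE 0.18; edgeR adjusted p = 6.61e-06). CSTB, the intracellular inhibitor cystatin B, rose by 1.03 (SE 0.20; edgeR adjusted p = 0.00495), whereas CSTA and CST3 did not pass the test. Of 20 autophagy genes tested, 9 rose and 3 fell, with the cargo receptor NBR1 up by 1.58 (SE 0.15) and GABARAPL1 up by 1.32 (SE 0.18). Of 19 MiT/TFE factors and mTORC1 regulators, 3 rose and 5 fell; MITF, a relative of TFEB, fell by 2.18 (SE 0.31) and RPTOR, a subunit of mTORC1, by 0.81 (SE 0.21). NBR1, GABARAPL1, MITF, RPTOR, HYAL1, ARSA, TPCN1, LAPTM5 and ATP6V0E2 passed edgeR's test at an adjusted p under 0.05.

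In parental cells transduced with LINC00520, lysosomal genes differed from untransduced cells by small amounts. Of 35 genes tested, 7 were higher and 15 lower, where 25.2% of 12790 genes were higher and 24.8% lower, and either call fell on 50% of all genes. None changed by 2-fold or more, as did 0.446% of all genes upward and 0.821% downward. The median log2 fold change of the 35 was -0.08, beside 0.00 over all genes. LAMP3 did not pass the filter on low values; it held 1.48 ± 0.197 CPM (SD, n = 3) in untransduced and 1.79 ± 0.141 CPM (SD, n = 2) in transduced cells.

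CTSB did not pass the test in this comparison, at 228, 226 and 228 CPM in untransduced and 220 and 224 CPM in transduced cells (log2 -0.04, SE 0.03; edgeR adjusted p = 0.325). The 2 groups did not overlap, but the gap was of the size of the spread within them. CTSL1 was slightly higher, at 46.4, 43.2 and 43.6 CPM against 52.2 and 53.1 CPM (log2 0.24, SE 0.05; edgeR adjusted p = 0.000147). CTSL2 showed a larger step, from 8.25, 7.92 and 7.89 CPM to 11.3 and 12.1 CPM (log2 0.54, SE 0.08; edgeR adjusted p = 1.17e-05). CTSC rose too, by 0.48 (SE 0.03; edgeR adjusted p = 5.09e-12), while CTSK and CTSH fell, so the cysteine cathepsins split.

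CTSD was the abundant protease that fell: it held 420, 445 and 448 CPM in untransduced and 318 and 328 CPM in transduced cells. The groups were well separated, and the log2 fold change was -0.44 (SE 0.03; edgeR adjusted p = 4.55e-11). LGMN fell by 0.38 (SE 0.06; edgeR adjusted p = 6.39e-06). Of the 7 glycan hydrolases 6 fell: GAA, the acid alpha-glucosidase, by 0.37 (SE 0.08; edgeR adjusted p = 0.000527), and GLB1, HEXA, GUSB, SGSH and MAN2B1 by less, while GLA, the alpha-galactosidase, rose by 0.22 (SE 0.05; edgeR adjusted p = 0.000494). Also lower were NPC2, PSAP, SMPD1 and CD63.

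**Figure D5:**
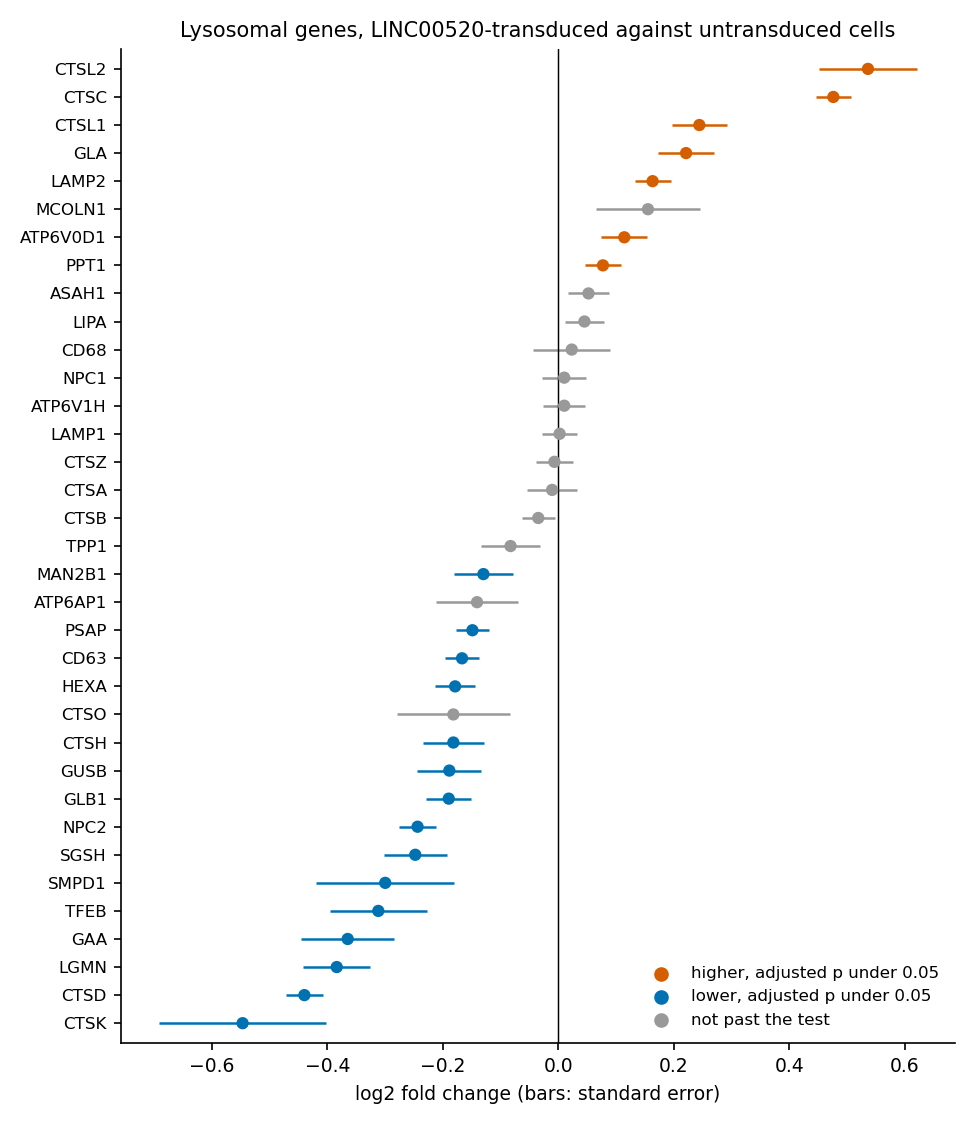
Log2 fold change between LINC00520-transduced and untransduced parental cells for the 35 genes tested, with standard errors and coloured by edgeR call. The axis spans less than 1 unit each way; CTSL2 (0.54) and CTSC (0.48) are at the top and CTSD (-0.44) and CTSK (-0.55) at the bottom.

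LAMP1 was level, at 214, 213 and 222 CPM in untransduced and 216 and 217 CPM in transduced cells (log2 0.00, SE 0.03; edgeR adjusted p = 0.956), and LAMP2 rose by 0.16 (SE 0.03; edgeR adjusted p = 0.000121). TFEB held 12.6, 11.3 and 12.2 CPM in untransduced and 9.63 and 9.76 CPM in transduced cells, without overlap (log2 -0.31, SE 0.08; edgeR adjusted p = 0.00335). In deposited FPKM the groups did overlap (5.82, 5.50 and 6.05 against 4.42 and 6.20), and limma on log2 FPKM did not call TFEB. The rises of ATP6V0D1 (0.11) and PPT1 (0.08) were the smallest called; PPT1 kept its call in 1 of 13 alternative fits and ATP6V0D1 in 7. MAN2B1 and SMPD1 each lost theirs in 7 of 13.

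Outside the 35, to be read against the 25.2% of all genes that were higher and the 24.8% that were lower with LINC00520, 8 of 20 membrane and delivery genes fell and 1 rose. LAPTM5, a lysosomal membrane protein best known from blood cells, fell from 148 ± 9.42 CPM (SD, n = 3) to 42.9 ± 2.13 CPM (SD, n = 2; log2 -1.78, SE 0.05), and SORT1, a sorting receptor, by 0.75 (SE 0.05). Of 24 other hydrolases and activators, 4 rose and 10 fell. Other proton pump subunits rose in 8 and fell in 4 of 17, and autophagy genes rose in 2 and fell in 6 of 21, with SQSTM1 lower by a log2 fold change of -0.45 (SE 0.03) and GABARAPL1 by -0.53 (SE 0.06). Of 6 cathepsin inhibitor rows tested, 3 rose and 1 fell. The shared row of SERPINB3 and SERPINB4 was scarce and rose from 1.18 to 1.96 CPM (log2 0.77, SE 0.22, edgeR adjusted p = 0.00514). CSTB was the row that fell (log2 -0.34, SE 0.03, edgeR adjusted p = 1.25e-08). Epithelial markers moved beside these genes: KRT14 rose by 1.44 (SE 0.05) and EPCAM fell by 0.74 (SE 0.04). At 36 h against 4 h, 6 of the 9 fell and 1 rose, where 20.5% of all genes fell and 18.8% rose. CD14 was lower with LINC00520 (log2 -0.59, SE 0.11; edgeR adjusted p = 5.68e-05), beside the fall of LAPTM5. The part of these markers in the results was not tested.

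The authors' deposited table of calls named 2 of the 36 genes as higher (CTSC and CTSL2) and 4 as lower (CTSK, CTSD, LGMN and GAA) with LINC00520. Between 4 h and 36 h the authors' deposited table named 10 as higher at 36 h and 3 as lower (CTSD, ATP6V0D1 and CTSZ). CD68 was not among them. Against 0 h the authors' deposited table named 3 genes as higher at 4 h (NPC1, CTSB and CTSL1). It named 5 at 12 h (CTSC, NPC1, LAMP3, CTSB and CTSL1) and 11 at 36 h, and none as lower. How many of all genes the authors' table named was not counted, so these numbers have no share of all genes beside them.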

How the data were processed

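PolyA-selected libraries were base-called with CASAVA 1.4, aligned to hg19 with TopHat and quantified with Cuffdiff, per the submitters' processing notes; tool versions, annotation and strand setting are not given in the sources used here. Per the file headers, the authors' tables hold an estimated count of fragments per gene and library (97.9% to 99.9% whole within 0.001) and FPKM as deposited, scaled across libraries. The authors' deposited calls hold a log2 fold change and a q-value (p-value adjusted); in the authors' deposited time-course calls the log2 column exceeded what a log2 can be, so it was read as a score, for its sign only. The loci given are the deposited rows' and can be wider than the gene.

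Of 13 samples 11 matched columns by name; the 2 control lincRNA samples and 7 libraries that match no label were not used. Counts were rounded and tested with edgeR 4.0.16 (TMM, glmQLFit, glmQLFTest; R 4.3.3), 1 coefficient per group, on genes with FPKM of 1 or more in at least 2 (over-expression) or 1 (time course) libraries and status OK; p-values were 2-sided, Benjamini-Hochberg adjusted, threshold 0.05. Standard errors are the log2 fold change over the root of F. The test recovered 100% of simulated 2-fold changes for LINC00520 and 62.7% for 36 h against 4 h. Of simulated 1.5-fold changes it recovered 100% and 11.9%. Few genes were changed in the simulation (67 at 1.5-fold, 67 at 2-fold and 66 at 4-fold), far fewer than were called in the data. The adjusted threshold is stricter when few genes change, so these shares cannot be carried over to the data. The changed genes were drawn above a floor in mean level, so scarce genes such as CTSK were not covered. Alternatives used limma 3.58.1 and DESeq2 1.42.0. Between replicates the median chi-square per degree of freedom was 1.5 and 1.58 (parental), 14 (4 h) and 4.02 (36 h). Genes were described with per-library values when called at 2-fold or more in any comparison, or when they were CTSL1, CTSL2, CTSB, CTSD, LAMP1 or TFEB; from other lists up to 2 called genes with the largest change were named, and inhibitors beyond these were named after their values were seen. Members and lists were chosen with earlier results of these data known. Promoters came from RefSeq (GRCh38.p14).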

Additional observations from a re-analysis of the deposited data

How the results depend on the processing

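With LINC00520, counts of genes higher (5 to 7) and lower (10 to 16) stayed within 1.5 times of 7 and 15 under each alternative, leaving out a library included. Over all 12790 genes of that comparison, DESeq2 called 2493 higher and 2456 lower, and limma (pseudocount 0.1) 2387 and 2432. For 36 h against 4 h, 11 genes higher became 6 with limma on log2(FPKM + 0.1) and 6 without scaling beyond the library total. The 5 lower became 2 with DESeq2, 2 and 2 with limma (pseudocounts 1 and 0.1), 3 with RLE size factors and 8 without scaling. Both counts also moved on leaving out 1 library, which leaves 1 library at that time. Of 15572 genes, 1861 were higher and 4823 lower without scaling, against 2930 and 3200 in the main fit. DESeq2 called 2895 and 2661, RLE 3193 and 2982, and limma 2334 and 2301 (pseudocount 1) or 2073 and 1932 (pseudocount 0.1). For 4 h against 0 h, 2 higher became 0 and 0 with limma (pseudocounts 1 and 0.1), which called 86 and 53 of 15572 genes higher. Counts in both directions also moved on leaving out a 4 h library, which leaves 1 library a side. For 12 h against 0 h, 2 higher became 4 with DESeq2 and 5 without a filter on low values. These fits called 634 of 15572 and 1026 of 28470 genes higher, against 474 of 15572 in the main fit. For 36 h against 0 h, 7 higher became 11 with DESeq2 and 4 and 3 with limma (pseudocounts 1 and 0.1), and 0 lower became 4 without scaling. Over all genes these fits called 1741, 1002 and 778 higher, against 1556 in the main fit. Without scaling 3740 were lower, against 1458. The count of genes higher also fell on leaving out a 36 h library. The cause of these moves was not tested. The calls of CTSB, CTSL1, CD63, CD68 and LAMP3 between 4 h and 36 h held in every alternative run, although the authors' deposited calls did not name CD68. No called gene changed direction.

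Same-numbered libraries did not deviate together (correlations -0.04 for the parental groups and 0.078 for 4 h and 36 h), so no pairing by number was seen. The check rests on 1 difference, between replicates 1 and 2, in each group. It cannot settle whether same-numbered libraries were made together. With the replicate number as a block, 5 genes were higher and 14 lower with LINC00520, where 2756 and 2744 of 12790 genes were. At 36 h against 4 h, fitted on those libraries only, 12 were higher and 4 lower, where 3350 and 3386 of 15098 genes were.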
